A study of Mus musculus with 32 samples.

Results

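The genes described here are 43 genes of programmed cell death, chosen by symbol from the BCL2 family, the caspases and the proteins that act with them: the apoptosome and mitochondrial factors, the inhibitors of apoptosis, the death receptors with their adaptors, the necroptosis kinases and the nuclear end of the pathway. A gene entered if a row of the arrays carried its symbol and no other symbol. At gene level 37 of the 43 had such a row, 1 each, among 16755 features, of which 14996 carry a single symbol. At exon level 38 of the 43 had one or more, with 458 of 188590 probe sets. Bax, Cycs, Birc2, Tradd and Trp53 were not analysed here, and Ripk1 was analysed at exon level only, with 16 probe sets.

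Hippocampal RNA came from 8 subcongenic mice named Sicd2-ISCL4 (ISCL4) and, as controls, from 8 littermates called FVB-like. All 16 mice were male and between 6 and 8 weeks old, and the labels record no treatment. Sicd2 lies on chromosome 15 and affects how readily hippocampal neurons die after seizures. A subcongenic line keeps only a stretch of the donor strain's DNA at its locus, and that stretch brings all of its genes with it. The labels name neither the donor strain nor the ends of the segment. RNA from both hippocampi of a mouse was put on 1 exon array, so each of the 16 mice is 1 replicate and each array gives both a gene-level and an exon-level sample, 32 samples in all. By chromosome in the RefSeq annotation of assembly GRCm38.p6, 0 of the 37 measured genes lie on chromosome 15.

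Apoptosis in neurons is controlled at the outer mitochondrial membrane. Anti-apoptotic BCL2 proteins hold the effectors BAX and BAK in check, BH3-only proteins relieve that restraint, and the opened membrane releases cytochrome c, which assembles the apoptosome with APAF1 and activates caspase 9. Death receptors reach the caspases from the cell surface through FADD and caspase 8, and where caspase 8 is blocked the kinases RIPK1 and RIPK3 can instead drive necroptosis through MLKL. Most of these proteins are regulated by cleavage, binding and release, which an RNA array does not read.

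Values are log2 signals that the authors deposited. The array medians spanned 7.29 to 7.34 (gene level) and 7.74 to 7.78 (exon level). Correlations between arrays over all gene-level features ran between 0.973 and 0.995, and 0 pairs of arrays were identical. The array files fall under 2 naming schemes, replicates 1 to 4 of both groups (array set A) and replicates 5 to 8 of both groups (array set B), and what separates them is not stated. Markers of the labelled tissue were present: all 7 markers of pyramidal and other neurons and 3 of the 4 measured markers of dentate granule cells lay above the dimmest 25% of features.

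No cell death gene met the threshold. With limma, fitted to all 16755 features with array set as a covariate, 0 of the 37 genes had a Benjamini-Hochberg adjusted p under 0.05, against 49 of all features (0.292%). The lowest adjusted p of a member was 0.169, that of Birc3. At an unadjusted p under 0.05 there were 5 of 37 (13.5%), Birc3, Bcl2l2, Xiap, Fas and Parp1, against 14.4% of all features, so the share of small p values among the cell death genes was near the background. Of these 5, 3 were higher in ISCL4 mice (7.51% of all features) and 2 lower (6.89% of all features).

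The differences were small. Over the 37 genes the difference, ISCL4 minus FVB-like in log2 units, ran between -0.16 and 0.24 with a median of -0.002, against a median of 0.004 over all features. The median size of a difference regardless of sign was 0.039 for the cell death genes and 0.060 for all features, and the median standard errors were 0.058 and 0.062. In 18 genes ISCL4 mice had the higher mean and in 19 the lower, and 52.1% of all features had the higher mean in ISCL4 mice. The 95% confidence interval of the difference lay within 1.2-fold either way for 30 of the 37 genes (81.1%), against 70.2% of all features. The other 7 were Bcl2l2, Bnip3l, Casp8, Xiap, Birc3, Fas and Cflar. In none of the 37 did the 8 ISCL4 mice and the 8 FVB-like mice separate without overlap, which 0.119% of all features did.

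**Figure D1:**
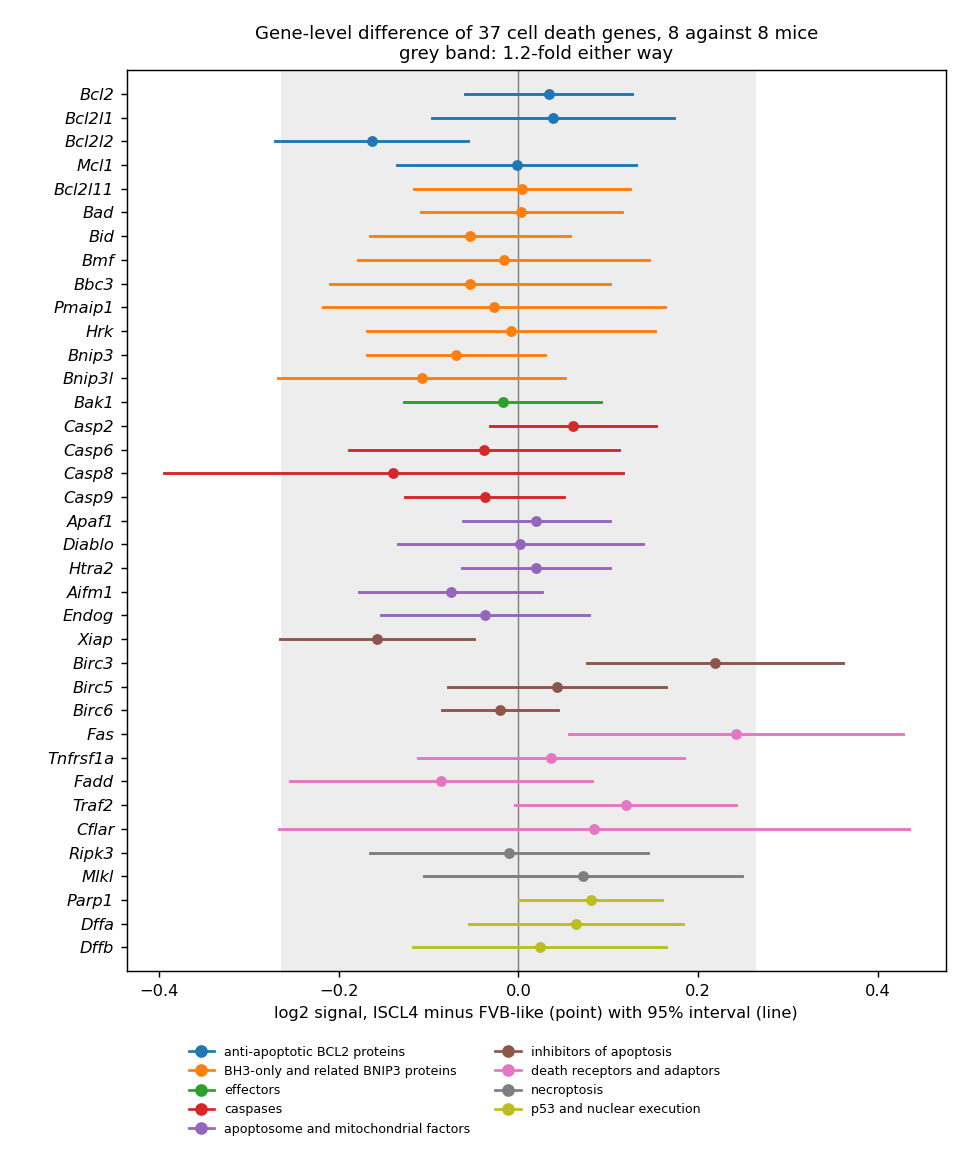
Difference of each of the 37 cell death genes at gene level, ISCL4 minus FVB-like in log2 units, by class; points are limma estimates from 8 mice per group and bars their 95% confidence intervals. Estimates lie between -0.16 and 0.24, and the intervals of Birc3, Fas, Parp1, Bcl2l2 and Xiap exclude 0 before adjustment.

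Among the 4 anti-apoptotic BCL2 proteins, Bcl2l2 stood lowest relative to the littermates. Bcl2l2, which encodes BCL-W, a survival protein of adult neurons, had a lowest, median and highest log2 signal of 7.20, 7.28 and 7.56 in ISCL4 mice, against 7.38, 7.46 and 7.60 in FVB-like mice. The ISCL4 mice lay at the low end, with their median below the lowest FVB-like mouse. Their range covered most of the FVB-like range only through replicate 2, at 7.56, and the next highest ISCL4 mouse, replicate 1, was at 7.43. The means were 7.32 ± 0.12 in ISCL4 mice and 7.48 ± 0.07 in FVB-like mice (SD, n = 8 each), a difference of -0.16 (SE 0.051, 95% interval -0.27 to -0.06, or 0.893-fold), with an adjusted p of 0.175 from limma. Within array set B the difference was -0.22 and within array set A -0.11, and 7 of 8 ISCL4 mice lay below the FVB-like mean of their own set. When each gene was instead taken as the median signal of its exon probe sets on each array, the difference of Bcl2l2 was -0.01. The median of the differences of its 7 probe sets was -0.14.

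The other anti-apoptotic genes differed by less than their error. Bcl2, the founding member of the family, averaged 8.35 ± 0.23 in ISCL4 mice and 8.32 ± 0.20 in FVB-like mice (SD, n = 8 each), a difference of 0.03 (SE 0.044). Bcl2l1, which encodes BCL-XL, the main anti-apoptotic form in mature neurons, averaged 7.93 ± 0.13 in ISCL4 mice and 7.89 ± 0.13 in FVB-like mice, a difference of 0.04 (95% interval -0.10 to 0.17). Mcl1, a short-lived protein of the same function, averaged 8.70 ± 0.22 in ISCL4 mice and 8.70 ± 0.29 in FVB-like mice, with a 95% interval of the difference of -0.14 to 0.13.

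Of the effectors that form the pore in the outer membrane, Bak1 was measured. Its lowest, median and highest signals were 7.73, 7.80 and 8.01 in ISCL4 mice, against 7.63, 7.84 and 8.09 in FVB-like mice. The ISCL4 range lay wholly inside the FVB-like range. The difference was -0.02 (SE 0.052, 95% interval -0.13 to 0.09, adjusted p = 0.915 from limma).

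The BH3-only and related BNIP3 genes, the sensors that set the pathway off, had intervals within 1.2-fold either way in 8 of 9, all but Bnip3l. Across the 9 genes the difference ran between -0.11 and 0.00, 2 were higher in ISCL4 mice and 7 lower, and 0 of 9 had an unadjusted p under 0.05 (background 14.4%). Bcl2l11, which encodes BIM, averaged 6.20 ± 0.12 in ISCL4 mice and 6.20 ± 0.10 in FVB-like mice (SD, n = 8 each). Bbc3, which encodes the p53 target PUMA, averaged 6.44 ± 0.26 in ISCL4 mice and 6.49 ± 0.17 in FVB-like mice, a difference of -0.05 (95% interval -0.21 to 0.10). Hrk, a BH3-only gene of the nervous system also known as DP5, averaged 9.32 ± 0.16 in ISCL4 mice and 9.33 ± 0.27 in FVB-like mice.

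The remaining BH3-only genes had small differences too. Bad, which is held inactive by survival kinases, differed by 0.00 (SE 0.053), Bid, which caspase 8 cleaves to link the receptor pathway to mitochondria, by -0.05 (SE 0.052), Bmf by -0.02 (SE 0.076) and Pmaip1, which encodes NOXA, by -0.03 (SE 0.090). The mitophagy receptors Bnip3 and Bnip3l had the lowest estimates of the class. Bnip3 differed by -0.07 (95% interval -0.17 to 0.03) and Bnip3l by -0.11 (95% interval -0.27 to 0.05), with adjusted p values of 0.526 and 0.544 from limma.

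Of the 4 caspases measured, 3 had intervals within 1.2-fold either way. Casp8 did not and was the least precisely known. Casp2, an initiator activated in response to stress, differed by 0.06 (SE 0.043), Casp6, an executioner studied in axon degeneration, by -0.04 (SE 0.071), and Casp9, the initiator of the apoptosome, by -0.04 (SE 0.042). Casp8, the initiator of the death receptors, averaged 6.79 ± 0.17 in ISCL4 mice and 6.92 ± 0.34 in FVB-like mice (SD, n = 8 each), a difference of -0.14 with a 95% interval of -0.39 to 0.12. Its difference was 0.03 within array set B and -0.31 within array set A.

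The apoptosome and mitochondrial factors had intervals within 1.2-fold either way in 5 of 5 measured genes. Apaf1, the scaffold of the apoptosome, averaged 7.07 ± 0.09 in ISCL4 mice and 7.05 ± 0.08 in FVB-like mice (SD, n = 8 each), a difference of 0.02 (SE 0.039). Diablo and Htra2, released proteins that antagonise the inhibitors of apoptosis, differed by 0.00 (SE 0.064) and 0.02 (SE 0.039). Aifm1, which encodes the apoptosis-inducing factor of caspase-independent death, differed by -0.08 (95% interval -0.18 to 0.03), and 7 of 8 ISCL4 mice lay below the FVB-like mean of their set. Endog, a mitochondrial nuclease, differed by -0.04 (SE 0.054).

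The inhibitors of apoptosis held 2 of the 5 genes with an unadjusted p under 0.05, in opposite directions. Birc3, which encodes cIAP2, a ubiquitin ligase of tumour necrosis factor signalling, had a lowest, median and highest signal of 5.84, 6.05 and 6.31 in ISCL4 mice, against 5.54, 5.84 and 5.98 in FVB-like mice. All 8 ISCL4 mice lay above the FVB-like mean of their own array set, although the ranges overlapped. The means were 6.05 ± 0.15 in ISCL4 mice and 5.83 ± 0.15 in FVB-like mice (SD, n = 8 each), a difference of 0.22 (SE 0.067, 95% interval 0.08 to 0.36, or 1.16-fold), with an adjusted p of 0.169 from limma. It was 0.18 within array set B and 0.25 within array set A. Birc2, the neighbouring paralog that encodes cIAP1, was not analysed here. RefSeq lists each symbol as a synonym of the other gene and both share cIAP1 and cIAP2 as synonyms, so the name Birc3 rests on the platform annotation, and how far its probes read Birc2 was not tested.

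Xiap, which encodes the inhibitor that binds caspases directly, had a lowest, median and highest signal of 7.30, 7.49 and 7.63 in ISCL4 mice, against 7.33, 7.69 and 7.85 in FVB-like mice. The FVB-like values spread from the ISCL4 range upward, and all 8 ISCL4 mice lay below the FVB-like mean of their own set. The difference was -0.16 (SE 0.051, 95% interval -0.27 to -0.05, or 0.897-fold), with an adjusted p of 0.190 from limma, and it was -0.16 within array set B and -0.15 within array set A. As the median of its exon probe sets it was -0.08. Birc6, a very large inhibitor read by 85 probe sets, was the most precisely measured of the 37 genes, with a residual SD of 0.045, and differed by -0.02 (95% interval -0.09 to 0.04). Birc5, which encodes survivin, a protein of dividing cells, lay in the dimmest 25% of features and differed by 0.04 (SE 0.057).

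Among the death receptors and adaptors, Fas had the largest difference of the 37 genes, at a dim signal. Fas, the receptor of FAS ligand, had a lowest, median and highest signal of 5.11, 5.20 and 5.72 in ISCL4 mice, against 4.81, 5.03 and 5.32 in FVB-like mice. All 8 ISCL4 mice lay above the FVB-like mean of their set, and the ranges overlapped. The highest value came from replicate 1, while the other 7 ISCL4 mice lay between 5.11 and 5.39. The difference was 0.24 (SE 0.087, 95% interval 0.06 to 0.43, or 1.18-fold), with an adjusted p of 0.234 from limma, and without replicate 1 of the ISCL4 mice it was 0.18. With Fas taken as the median signal of its exon probe sets, 9 of 11 of them dim, the difference was 0.51. The median of the probe set differences of Fas was 0.11. Its signal lay in the dimmest 25% of features, below 5.77, where a value can be background.

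The rest of the class included the least precise gene of the set. Traf2, an adaptor of the tumour necrosis factor receptors, averaged 6.74 ± 0.12 in ISCL4 mice and 6.62 ± 0.21 in FVB-like mice (SD, n = 8 each), a difference of 0.12 (SE 0.058, adjusted p = 0.360 from limma), with 7 of 8 ISCL4 mice above the FVB-like mean of their set. Tnfrsf1a, which encodes the receptor TNFR1, differed by 0.04 (SE 0.070) and Fadd, the adaptor that recruits caspase 8, by -0.09 (SE 0.079). Cflar, which encodes cFLIP, an inhibitor of caspase 8, had the largest residual SD of the 37 genes, 0.358, and a difference of 0.08 with a 95% interval of -0.27 to 0.43. Its difference was -0.26 within array set B and 0.42 within array set A. A second feature, shared by Cflar and Gm9845 and left out for its 2 symbols, differed by -0.005 (SE 0.087).

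The necroptosis genes were dim. Ripk3 and Mlkl both lay in the dimmest 25% of features at gene level. Ripk3, the kinase that phosphorylates MLKL, averaged 5.41 ± 0.15 in ISCL4 mice and 5.42 ± 0.15 in FVB-like mice (SD, n = 8 each). Mlkl, the protein that ruptures the plasma membrane, averaged 4.66 ± 0.16 in ISCL4 mice and 4.59 ± 0.18 in FVB-like mice, a difference of 0.07 (SE 0.083).

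At the nuclear end of the pathway, Parp1, the poly(ADP-ribose) polymerase that caspases cleave and whose overactivity drives a separate form of death, had a lowest, median and highest signal of 8.06, 8.17 and 8.27 in ISCL4 mice, against 8.03, 8.06 and 8.22 in FVB-like mice. The ranges overlapped between 8.06 and 8.22, and 7 of 8 ISCL4 mice lay above the FVB-like mean of their set. The difference was 0.08 (SE 0.038, 95% interval 0.00 to 0.16, or 1.06-fold), with an adjusted p of 0.342 from limma. Within array set B it was 0.05 and within array set A 0.11, and as the median of its exon probe sets 0.04. Dffa and Dffb, the inhibitor and the nuclease of caspase-driven DNA fragmentation, differed by 0.06 (SE 0.056) and 0.02 (SE 0.066).

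**Figure D2:**
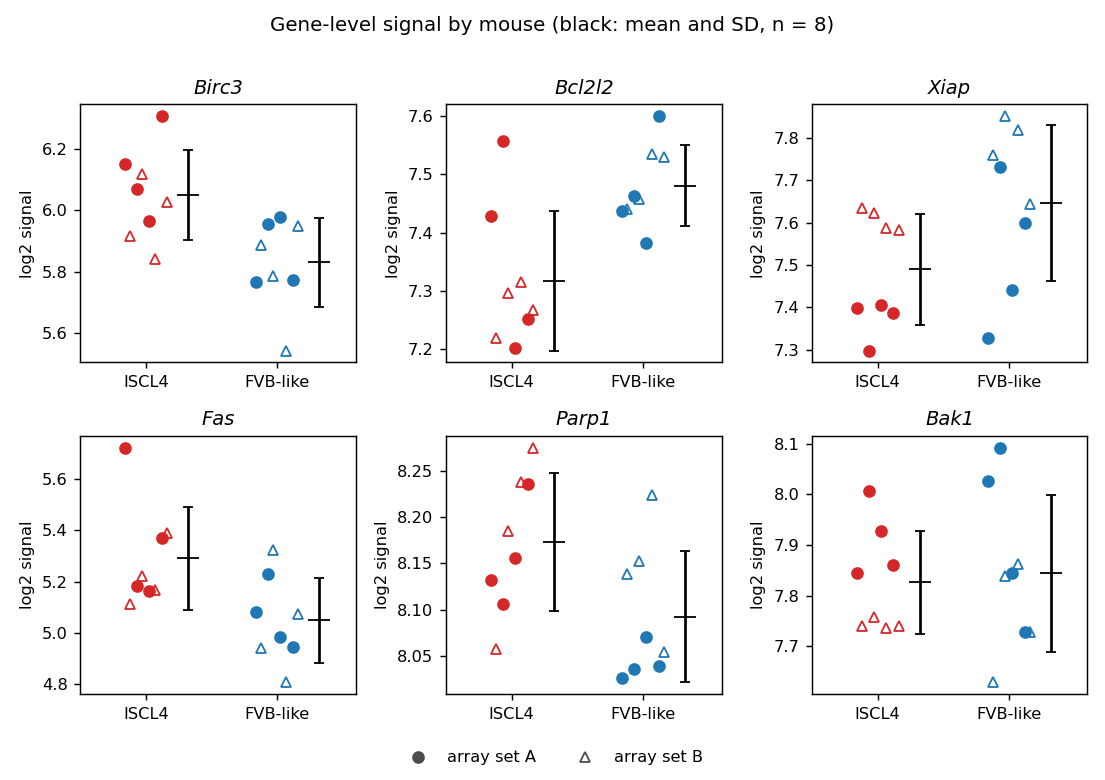
Gene-level log2 signal in each mouse for the 5 genes with an unadjusted p under 0.05 and for the effector Bak1, ISCL4 left and FVB-like right, filled circles for array set A, open triangles for set B, and the group mean ± SD in black (n = 8 each). The groups overlap in every panel; Birc3 lies between 5.84 and 6.31 in ISCL4 mice and between 5.54 and 5.98 in FVB-like mice.

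The exon-level values asked whether single exons differed where the whole gene did not. With limma over all 188590 probe sets, 0 of the 458 probe sets of cell death genes had an adjusted p under 0.05 (0.0249% of all probe sets), and the lowest adjusted p was 0.284. At an unadjusted p under 0.05 there were 31 (6.77%), against 10.2% of all probe sets. Of these, 18 were higher in ISCL4 mice (5.16% of all probe sets) and 13 lower (5.07% of all probe sets). Of the 458, 235 had the higher mean in ISCL4 mice and 223 the lower, 100 lay in the dimmest 25% of probe sets, and 0 separated the groups without overlap (0.0546% of all probe sets).

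Both levels come from the same arrays, so probe sets of the 5 genes chosen for their gene-level difference are a description of where in the gene it was read and no second test of it. In Birc3 8 of 9 probe sets were higher in ISCL4 mice, in Parp1 20 of 26 and in Fas 7 of 11, and 9 of the 11 of Fas were dim. In Xiap 6 of 7 were lower in ISCL4 mice and in Bcl2l2 4 of 7. The differences of the 7 probe sets of Bcl2l2 ran between -0.88 and 0.17. In limma 2 of them were lower at an unadjusted p under 0.05, and 2 of the 7 were dim. Its gene-level difference was therefore read unevenly over its probe sets. The gene-level difference and the median of the gene's probe set differences had the same sign in 29 of 37 genes.

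The probe set with the smallest p belonged to Traf2. Of the 11 probe sets of Traf2, 9 were higher in ISCL4 mice. Probe set 4970082 of Traf2 had a lowest, median and highest signal of 7.49, 7.67 and 7.92 in ISCL4 mice, against 7.16, 7.42 and 7.64 in FVB-like mice, a difference of 0.26 (SE 0.070, adjusted p = 0.284 from limma). The ranges overlapped at their ends. In Birc6, probe set 4989326 differed by -0.31 (SE 0.085), 1 of 85 probe sets of which 37 were higher and 48 lower in ISCL4 mice.

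Ripk1, the kinase upstream of RIPK3, is read only at this level, and 12 of its 16 probe sets were lower in ISCL4 mice, with a median difference of -0.04. Its probe set 4937728 had a lowest, median and highest signal of 7.79, 8.42 and 8.87 in ISCL4 mice, against 8.39, 8.62 and 9.17 in FVB-like mice, a difference of -0.33 (SE 0.092, adjusted p = 0.296 from limma). The ranges overlapped between 8.39 and 8.87. The others among the 8 probe sets with the smallest p were 4536942 of Apaf1, at -0.41 (SE 0.127), and 4 in the dimmest 25% of probe sets, with differences of -0.47 in Endog, 0.62 in Birc3, 0.87 in Fas and 0.38 in Mlkl.

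**Figure D3:**
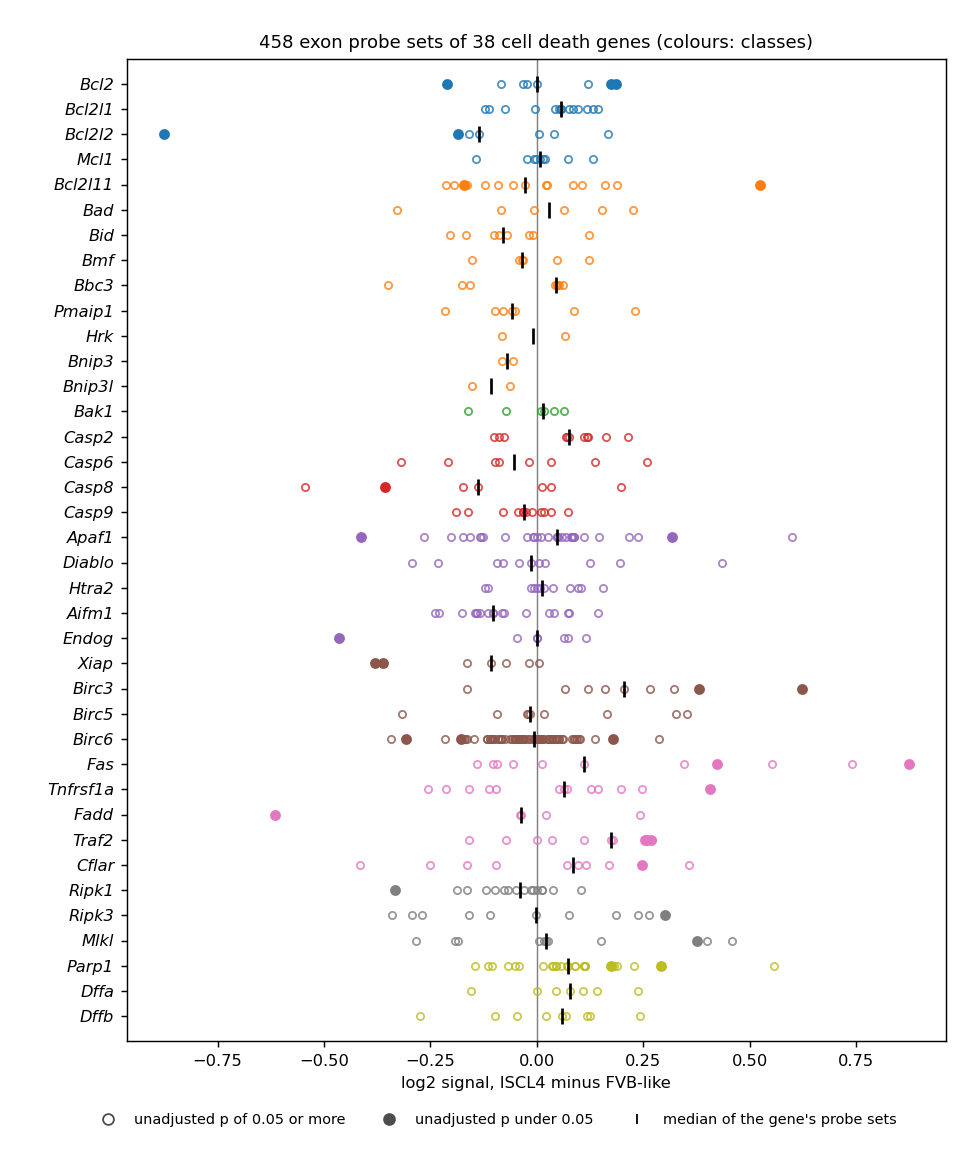
Difference of each of the 458 exon-level probe sets, ISCL4 minus FVB-like in log2 units, by gene in class order; filled points have an unadjusted p under 0.05 and ticks mark the gene's median. None passed the adjusted threshold. The probe sets of Fas, 9 of 11 of them dim, reach 0.87, and those of Bcl2l2 reach -0.88.

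Exon usage, the difference of a probe set relative to the mean of its gene's probe sets on the same array, was fitted in limma for 350 probe sets of 33 genes that were above the dimmest 25% and had at least 3 such probe sets. Of these, 0 had an adjusted p under 0.05 (0.0303% of all probe sets tested), 29 (8.29%) had an unadjusted p under 0.05 against 9.6% of all, and the lowest adjusted p was 0.344. Apaf1 probe set 4536942 had the smallest p, with a relative difference of -0.48 (SE 0.130): its signal had a median of 6.12 in ISCL4 mice and 6.55 in FVB-like mice, while the whole gene differed by 0.02. The ISCL4 median lies below the limit of the dimmest 25%, 6.20, and the FVB-like median above it, so the probe set passed that filter on its mean over all mice and its ISCL4 values can be background. The next were Ripk3 probe set 5015618 at -0.34 (SE 0.092), Birc6 probe set 4989326 at -0.29 (SE 0.084), Bcl2 probe set 4558502 at -0.26 (SE 0.076), Birc6 probe set 4393206 at 0.20 (SE 0.067) and Ripk1 probe set 4937728 at -0.27 (SE 0.096). Of the 11 probe sets of Ripk3, 8 were dim and left out, so its mean rests on few probe sets, this one among them.

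The cell death genes, like all features, differed more between array sets than between groups. The median size of the set difference was 0.127 for the cell death genes and 0.155 for all features, against 0.039 and 0.060 for the group difference. Between array set B and array set A, with 8 mice each, limma called 18 of the 37 genes (48.6%) at an adjusted p under 0.05, near the 46.4% of all features, with 12 higher in set B (23.9% of all features) and 6 lower (22.4%). The set difference was larger in size than the group difference in 28 of 37 genes (75.7%), near the 75.9% of all features. Mcl1 averaged 8.91 ± 0.11 in set B and 8.49 ± 0.13 in set A (SD, n = 8 each), a difference of 0.42 (SE 0.063). Pmaip1 was higher in set B by 0.38 (SE 0.090) and Bcl2 by 0.37 (SE 0.044).

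On the lower side, Fadd differed by -0.28 (SE 0.079) and Bnip3l by -0.27 (SE 0.075), and Casp8 by -0.18 (SE 0.120), which missed the threshold. Of the 9 BH3-only and BNIP3 genes, 7 were called between the sets (46.4% of all features), 6 higher in set B and Bnip3l lower. Between ISCL4 and FVB-like mice 0 were called (0.292% of all features). Each set holds 4 mice of each group, so the set difference is balanced over the groups.

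The group difference pointed the same way in both sets in 18 of 37 genes (48.6%), against 57.9% of all features. Whether the group difference itself differed between the sets was tested as an interaction in limma: 0 of 37 genes had an adjusted p under 0.05 (0.00597% of all features), and 1 had an unadjusted p under 0.05 (6.45% of all features). That gene was Cflar, with an interaction, set B minus set A, of -0.68 (adjusted p = 0.721).

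**Figure D4:**
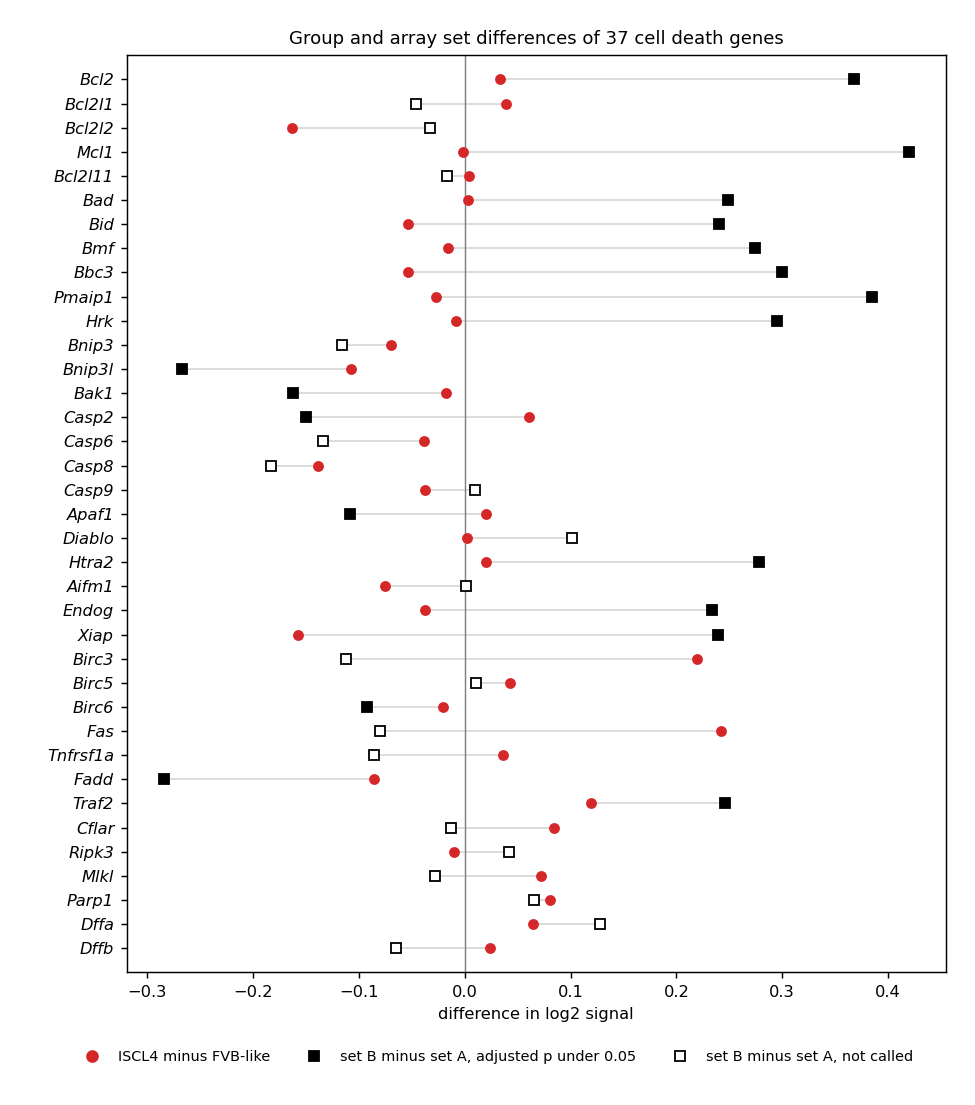
Difference between array sets (set B minus set A) and difference between groups (ISCL4 minus FVB-like) of each of the 37 cell death genes, log2 scale; circles are group differences and squares set differences, filled where called. The set differences reach 0.42 in Mcl1 and -0.28 in Fadd, while the group differences stay between -0.16 and 0.24.

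Other genes of cell death were read from a list of 65, covering further BCL2 and caspase family members, inflammasome and gasdermin genes, death ligands and receptors, the p53 family with its targets, and mitochondrial pore proteins. Of the 56 measured, 0 had an adjusted p under 0.05 in limma (background 0.292%), the lowest being 0.138, and 8 (14.3%) had an unadjusted p under 0.05, 7 higher and 1 lower in ISCL4 mice, against 14.4% of all features. The median difference was 0.01. Unlike the 37 genes above, this list holds genes on chromosome 15: Bik, Faim2, Tmbim6 and Gsdmd. They differed by -0.09, 0.04, -0.04 and 0.05, with adjusted p values between 0.570 and 0.840 from limma. Tnfrsf1b, which encodes the receptor TNFR2, had the smallest p: its lowest, median and highest signals were 6.78, 6.82 and 6.92 in ISCL4 mice, against 6.55, 6.71 and 6.79 in FVB-like mice. The ranges overlapped only at their ends, and the difference was 0.14 (SE 0.039).

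Cdkn1a, the p53 target that encodes the cell cycle inhibitor p21, had the largest difference of the 6 genes with the smallest p. It averaged 8.28 ± 0.46 in ISCL4 mice and 7.71 ± 0.29 in FVB-like mice (SD, n = 8 each), a difference of 0.57 (SE 0.176, adjusted p = 0.172 from limma) that was 0.30 within array set B and 0.85 within array set A. Gpx4, the lipid peroxidase that blocks ferroptosis, differed by -0.19 (SE 0.063). The other 3 of the 6 smallest p values belonged to Naip2 (0.13, SE 0.044), Tnfsf10, which encodes the death ligand TRAIL (0.22, SE 0.086), and the co-chaperone Bag3 (0.16, SE 0.064).

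In whole hippocampus, fewer cells of a type and less RNA per cell cannot be told apart. Of the oligodendrocyte markers, 11 of 12 measured were lower in ISCL4 mice, 0 were called by limma and 8 had an unadjusted p under 0.05, with a median difference of -0.22. Beside these and the marker counts below, 0.292% of all features were called and 14.4% had an unadjusted p under 0.05. The mean level of that list lay between 9.29 and 9.85 in ISCL4 mice and between 9.56 and 10.04 in FVB-like mice. Immediate early genes, which neuronal activity induces, were higher in ISCL4 mice in 11 of 11. Of them 4 were higher at an adjusted p under 0.05 in limma, Egr2, Arc, Nr4a1 and Nr4a3. Arc and Nr4a1 lie on chromosome 15, the chromosome of Sicd2. Whether they lie in the donor segment, whose ends the labels do not name, was not tested. The mean level of that list lay between 8.34 and 9.18 in ISCL4 mice and between 8.13 and 8.81 in FVB-like mice.

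Markers of meninges and fibroblasts were lower in ISCL4 mice in 9 of 9, with a median difference of -0.13. In limma 0 were called and 3 had an unadjusted p under 0.05. Within array set B 6 of 9 were lower, and 8 of 9 without FVB-like replicate 2, a setting chosen after seeing the data. Their mean level lay between 7.31 and 7.96 in ISCL4 mice and between 7.39 and 8.05 in FVB-like mice. Microglial markers, 7 of 11 higher in ISCL4 mice, had mean levels between 7.88 and 8.09 in ISCL4 mice and between 7.85 and 8.06 in FVB-like mice, and neuronal markers between 11.44 and 11.64 in both groups. None of the lists had every marker in the dimmest 25% of features, and 5 of the 7 measured markers of dividing cells did lie there. Interneuron markers were higher in ISCL4 mice in 7 of 7, with a median difference of 0.05, 0 called by limma and 2 at an unadjusted p under 0.05. Those 2 were Vip and Pvalb, and Pvalb lies on chromosome 15. Blood markers were higher in 3 of 3, with a median difference of 0.14 and 0 called. Among them Ptprc, the leukocyte antigen CD45, differed by 0.22 (SE 0.059, adjusted p = 0.136 from limma). Astrocyte markers were higher in 4 of 7, with 2 at an unadjusted p under 0.05. Oligodendrocyte progenitor markers were lower in 5 of 6, with 0. Endothelial and pericyte markers were lower in 6 of 9, with 2, and dentate granule cell markers in 2 of 4, with 1. The part of these cell types in the differences of Birc3, Bcl2l2, Xiap, Fas and Parp1 was not tested.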

How the data were processed

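The authors deposited log2 values per gene-level feature and per exon-level probe set. Partek 6.6, RMA and mm9 are named, without their roles, per the submitters' processing notes. RMA equalises array distributions, so a shift common to all genes is not visible, and no detection call was used, so dim values can be background. Groups and replicate numbers came from the sample titles, array sets from the array file names in the labels.

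Gene names came from the platform annotation, and all 43 symbols matched RefSeq (GRCm38.p6), used for names and chromosomes only. Values were fitted with limma 3.58.1 (lmFit, eBayes; R 4.3.3) with group and array set, and p values adjusted by Benjamini-Hochberg over all features of a level; every adjusted p is limma's, and differences subtract FVB-like from ISCL4. The group fits at gene level, exon level and for exon usage were tested on simulated data; the array set, interaction and block fits were not. The number of arrays limits the precision. Figures were drawn with matplotlib 3.10.9.

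Same-numbered mice of the groups correlated at 0.296 to 0.487 in their deviations from the group means, which array set contributes to, and at -0.05 to 0.25 in their deviations from group and set means, with 6 of 8 over 0.1. The labels do not say that a number marks a shared litter or day, so the numbers were not treated as pairs; array set stayed in the model. Alternatives covered a replicate block, no array set, each array set alone, other normalizations, dim features left out, another prior, exon medians and leaving out each mouse.

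Named in full were genes with an unadjusted p under 0.05, the effectors, the 8 and 6 probe sets with the smallest p at exon level and in exon usage, the 3 members with the largest set difference either way, and the 6 other cell death genes with the smallest p. The other cell death genes on chromosome 15 were named for their chromosome. The members and all lists were chosen with earlier results of these data known.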

Additional observations from a re-analysis of the deposited data

Results flagged for a closer look

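In each of the 37 genes and each group the mouse farthest from its group was compared with Dixon's 95% critical value for 8 samples. Of the 74 groups of values 4 exceeded it, and chance flags about 1 in 20 where the values are 1 uniform sample. The 8 mice of a group span both array sets, so that rate is only a rough guide. All flagged mice are of array set A, and Bmf and Apaf1 were called between the sets. Bmf was 5.93 in ISCL4 replicate 4, against 6.27 to 6.49 in the other ISCL4 mice. Fas was 5.72 in ISCL4 replicate 1, against 5.11 to 5.39 in the other ISCL4 mice. Mlkl, a dim gene, was 5.00 in ISCL4 replicate 3, against 4.52 to 4.73 in the other ISCL4 mice. Apaf1 was 7.23 in FVB-like replicate 1, against 6.98 to 7.09 in the other FVB-like mice.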

How the results depend on the processing

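No cell death gene, exon probe set or exon usage value was called under any alternative run for it, and the lowest adjusted p of a member in any of them was 0.0911, from Bcl2l2 without ISCL4 replicate 2. The number of genes with an unadjusted p under 0.05, 5 as reported, was 3 in array set B alone, 3 without array set in the model and 3 with each gene as the median of its exon probe sets, where 38 genes were fitted. The number of exon probe sets, 31 as reported, was 17 in array set A alone and 17 without array set. The number of intervals within 1.2-fold either way, 30 as reported, was 19 in array set A alone, where each group has 4 mice. Leaving out each mouse in turn, chosen after seeing the data, gave 4 to 7 genes and 22 to 36 probe sets with an unadjusted p under 0.05, 27 to 31 such intervals, 17 to 21 genes called between array sets, and 0 calls between groups. With the replicate number as a block in place of array set, 0 genes were called, 4 had an unadjusted p under 0.05, the lowest adjusted p was 0.172, and 43 exon probe sets had an unadjusted p under 0.05; the block changed no call of a member. Over all features the calls were 49 as reported, 18 with the replicate block, 15 without array set, 84 with dim features left out and 102 with an intensity trend and robust prior; at exon level they were 47, 30, 23, 99 and 273. Of 921 differences of single genes recomputed in 25 settings, 913 moved by less than 1 residual SD of the gene, and 82 changed sign. The median residual SD of the 37 genes, 0.117, exceeds their median size of a difference, 0.039, so this is a wide margin. The replicate block, the fit without array set, the other prior and leaving out dim features kept each difference unchanged by design. The 8 that moved further included 0.51 for Fas and 0.21 for Casp6, with each gene as the median signal of its exon probe sets. The medians of their probe set differences were 0.11 for Fas and -0.05 for Casp6, so the result depends on how the probe sets are summarised. The cause was not tested. Exon usage with dim probe sets left out was not run apart, since that filter is already in its test.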

Other observations

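In Bcl2, 3 of 9 probe sets had an unadjusted p under 0.05, in both directions. The share was 10.2% over all probe sets and 6.77% over the 458 of the cell death genes. Probe set 5083076 differed by 0.18 (SE 0.082) and 5010010 by 0.18 (SE 0.081), while 4558502 differed by -0.21 (SE 0.095), with adjusted p values between 0.461 and 0.477 from limma. The gene-level difference of Bcl2 was 0.03.

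The feature shared by Zranb3 and Bnip3l, left out of the gene-level set for its 2 symbols, differed by -0.05 (SE 0.059), against -0.11 (SE 0.075) for the feature of Bnip3l alone.

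Of 5 measured markers of choroid plexus, 5 had the lower mean in ISCL4 mice, with a median difference of -0.19, 0 called by limma and 0 at an unadjusted p under 0.05. The 6 measured markers of striatum also had the lower mean in ISCL4 mice, with a median difference of -0.20 and 0 at an unadjusted p under 0.05. Without FVB-like replicate 2, a setting chosen after seeing the data, 4 of 6 were lower with a median of -0.06, and within array set B, which does not hold that mouse, 4 of 6 with a median of -0.02. The part of either tissue in the differences of the cell death genes was not tested.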
